A study of Mus musculus with 12 samples.

Results

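The miR-200 family comprises the mature miRNAs cut from 5 hairpins, Mir200a, Mir200b, Mir200c, Mir141 and Mir429. Its members were taken by name, as every array entry starting with mmu-miR-200a-, mmu-miR-200b-, mmu-miR-200c-, mmu-miR-141- or mmu-miR-429-. This gave 9 of the 696 mouse miRNA names on the array, of which 5 are 3p arms and 4 are 5p arms. Of these 9, 7 were detected on at least 1 of the 12 arrays and entered the statistical fit, whereas mmu-miR-200b-5p and mmu-miR-200c-5p were undetected on every array, as were 253 names in all. The family was selected on the signals of mmu-miR-200a-5p, mmu-miR-141-5p and mmu-miR-429-3p, which differed between myopic and control retina, so the values of these 3 are given as a description, without p-values, in every comparison that uses the retina arrays.

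A miRNA hairpin is cut into a short duplex, and usually 1 strand, from the 5p or the 3p arm, is kept in the Argonaute protein while the other is lost. The retained strand finds its target mRNAs mainly through the seed, which is positions 2 to 8 counted from the 5′ end. The 3p arms are the strands for which the miR-200 family is known: they are abundant in epithelial cells and repress the transcription factors ZEB1 and ZEB2, which in turn repress E-cadherin and other epithelial genes.

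The mature sequences are shown because they divide the family into groups that share a seed. They are RefSeq entries on the mouse build GRCm38.p6, all 9 names were matched, and capitals mark the seed. The first group of 3p arms has the seed AAUACUG:
mmu-miR-200b-3p: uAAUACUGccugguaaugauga
mmu-miR-200c-3p: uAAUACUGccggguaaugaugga
mmu-miR-429-3p: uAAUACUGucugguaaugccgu
The other group of 3p arms has the seed AACACUG:
mmu-miR-200a-3p: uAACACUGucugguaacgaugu
mmu-miR-141-3p: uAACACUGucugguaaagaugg
The 5p arms, with different seeds, are:
mmu-miR-200a-5p: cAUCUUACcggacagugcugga
mmu-miR-200b-5p: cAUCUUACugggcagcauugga
mmu-miR-141-5p: cAUCUUCCagugcaguguugga
mmu-miR-200c-5p: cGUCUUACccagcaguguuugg

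With positions counted from 1 at the 5′ end, the seeds of both groups of 3p arms differ by a single base, which is U4C from mmu-miR-200b-3p to mmu-miR-200a-3p. The 5p seeds of miR-200a and miR-141 also differ at 1 position (A7C). In the array annotation, which uses mouse build mm9, the probes of the family match 2 loci. Those of miR-200b, miR-200a and miR-429 lie at chr4:155428067-155429855, a span of 1789 bases, and those of miR-200c and miR-141 at chr6:124667942-124668406, a span of 465 bases. In the RefSeq annotation of GRCm38.p6 the hairpins on chromosome 4 overlap the long noncoding RNA gene Gm13648, whereas those on chromosome 6 overlap no other gene and lie between the protein-coding genes Phb2 and Ptpn6. Each miRNA had 2 to 4 probes and 20 spots per array. Every probe of the family was the complement of the 3′ end of its miRNA and left 3 to 10 bases at the 5′ end uncovered, so the arms of a hairpin and the members of a seed group were read by different probes.

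The study asked which miRNAs change when C57BL/6J mice are made myopic by visual form deprivation, in which a frosted diffuser blurs the image on the retina, and profiled both retina and sclera. The diffuser covered the right eye for 10 days, from postnatal day 24 to day 34, and the contralateral left eye of the same animals was the control. There were 4 groups with 3 arrays in each: control retina (whole retina of the left eye), myopic retina (whole retina of the right eye), control sclera and myopic sclera. Each array held RNA of a pool of 3 eyes per the methods, although the labels name single mice. All mice were of the same strain and age, and no separate animals without a diffuser were profiled. Each of the 3 slides carried 1 array of each group from 1 pool number, always in the same position, so that the position on the slide and the group cannot be told apart. In bulk tissue of this kind, fewer cells of a type and less RNA per cell cannot be told apart either.

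The tissue labels were checked against marker miRNAs. All 8 names of retinal neurons (arms of miR-124, miR-9, miR-183, miR-96 and miR-182) were called higher in control retina than in control sclera. For the sclera, 4 of 5 names of connective tissue (miR-199a, miR-199b and miR-214) were called higher there, and so were 5 of 5 names of skeletal muscle, a tissue attached to the sclera through the eye muscles. Between 353 and 401 miRNAs were detected on the retina arrays and between 274 and 317 on the sclera arrays, with the fewest in control sclera 3. The 75th percentile of the signal over the 246 miRNAs detected on all arrays was 276 fluorescence units on control sclera 3 and 436 to 803 on the other sclera arrays. It was 1024 to 1414 on the retina arrays.

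The 3p arms of the family were detected in the sclera, whereas the 5p arms were detected only in the retina. Of the 3p arms, 4 were detected on all 6 sclera arrays, and mmu-miR-141-3p on 5 of them. Mmu-miR-200a-3p, mmu-miR-200c-3p and mmu-miR-141-3p were undetected on all 6 retina arrays. The 5p arms of miR-200a and miR-141 were each detected on 4 retina arrays and on none of the sclera. The only members detected in both tissues were mmu-miR-429-3p, on 4 retina arrays, and mmu-miR-200b-3p, on 1. A miRNA was marked as detected where the signal of a probe exceeded 3 times its error, and an undetected miRNA was listed at a total gene signal of 0.1 and stood at -1 on the normalized log2 scale.

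**Figure D1:**
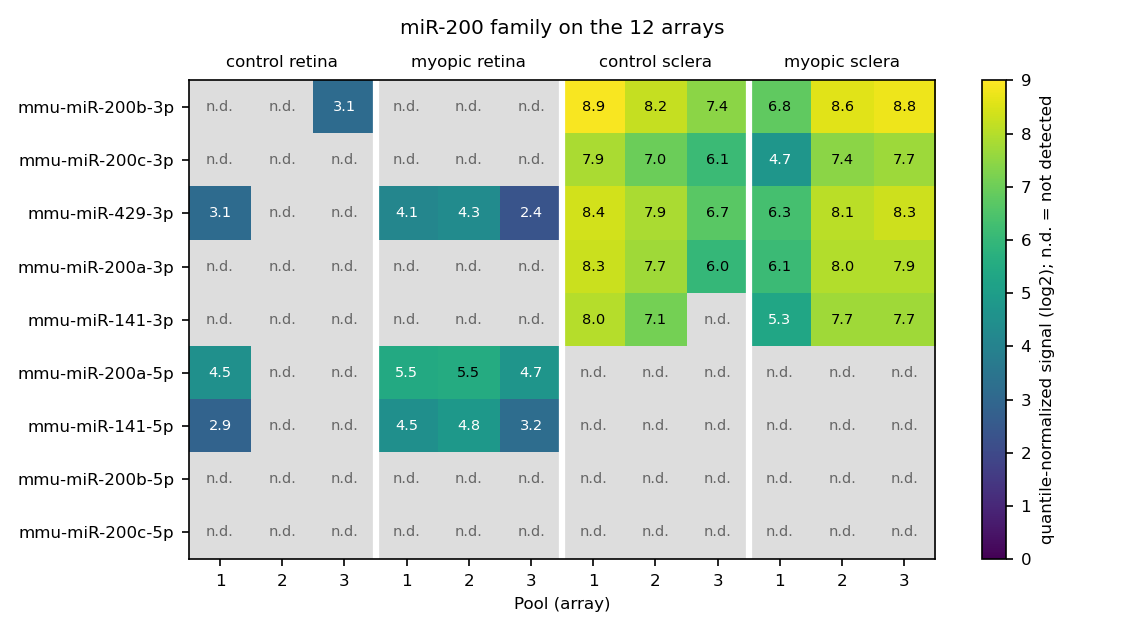
Quantile-normalized signal (log2) of the 9 family members (rows) on the 12 arrays (columns, 3 pools in each of 4 groups). Grey cells marked n.d. were not detected. The 3p arms fill the sclera columns at 4.72 to 8.92 except mmu-miR-141-3p in control sclera 3, and the 5p arms of miR-200a and miR-141 fill only control retina 1 and the 3 myopic retina columns.

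Mmu-miR-200b-3p was detected on every sclera array. Its total gene signal, which adds up the fluorescence of the detected probes, was 378, 228 and 41.3 in control sclera pools 1 to 3. In myopic sclera pools 1 to 3 it was 48.4, 203 and 200. Control sclera 3 and myopic sclera 1 were thus low, the other 4 pools were high, and the ranges of the groups overlapped.

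The others of its seed group were low in the same pools. Mmu-miR-429-3p, from the same locus on chromosome 4, measured 241, 164 and 23.0 in control sclera and 34.3, 133 and 131 in myopic sclera. Mmu-miR-200c-3p, from the locus on chromosome 6, measured 154, 83.3 and 15.2 in control sclera and 11.3, 77.9 and 79.7 in myopic sclera. The same pools, control sclera 3 and myopic sclera 1, were low in both.

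The group with the seed AACACUG did likewise. Mmu-miR-200a-3p gave 215, 136 and 13.1 in control sclera and 31.4, 124 and 108 in myopic sclera. Mmu-miR-141-3p gave 172 and 91.8 in control sclera 1 and 2, was undetected in control sclera 3, and gave 17.2, 95.3 and 80.2 in myopic sclera. Members of both loci and of both seeds were therefore high and low in the same pools. Over the sclera arrays the ratio of mmu-miR-429-3p to mmu-miR-200b-3p ranged from 0.557 to 0.721, while both signals varied by a factor of 10.5 and 9.15 respectively. The ratio to mmu-miR-200b-3p ranged from 0.317 to 0.649 for mmu-miR-200a-3p, from 0.233 to 0.406 for mmu-miR-200c-3p and, on the 5 arrays that detected it, from 0.356 to 0.471 for mmu-miR-141-3p. Since each miRNA has its own probes, these ratios describe how the members moved together and not their relative amounts.

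To ask how the family differed between the tissues, control retina was compared with control sclera and myopic retina with myopic sclera in a single limma fit of all 443 miRNAs. A miRNA was called where its adjusted p-value (Benjamini-Hochberg) was below 0.05 and the groups differed at least 2-fold. Of the 3p arms, the 4 that played no part in the selection of the family were all called lower in control retina, as were 23.0% of all miRNAs tested (50.6% were called in either direction). In the myopic eyes the same 4 were called lower, as were 26.4% of all miRNAs (58.9% in either direction). A miRNA detected in 1 tissue only passed the detection filter through that tissue. These counts and the p-values of such members below are therefore a description of members that passed, not of all 9. With no filter on detection, mmu-miR-200a-3p, mmu-miR-200b-3p and mmu-miR-200c-3p were called in both comparisons and mmu-miR-141-3p in the myopic eyes only (limma adjusted p = 0.063 in the control eyes).

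Among the members that were not noticed for their change in the retina, mmu-miR-200a-3p had the smallest adjusted p-value in the control eyes. It was undetected in all control retina pools and stood at 7.32 ± 1.18 (log2, SD, n = 3) in control sclera, a fitted difference of -8.32 ± 0.61 (SE, limma adjusted p = 1.8e-06). The retina pools at the floor had an SD of 0, which lowered this SE and p-value. On all 3 slides mmu-miR-200a-3p was lower in retina, by -9.26, -8.70 and -7.00. Mmu-miR-200c-3p stood at 6.99 ± 0.86 in control sclera and differed by -7.99 ± 0.71 (limma adjusted p = 6.9e-06).

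Mmu-miR-200b-3p, which was detected in 1 of 3 control retina pools, stood at 8.19 ± 0.75 in control sclera and differed by -7.80 ± 1.05 (limma adjusted p = 1.2e-04). On the slide of the retina pool that detected it the difference was -4.28, against -9.92 and -9.22 on the other slides. For mmu-miR-141-3p, which control sclera 3 did not detect, the mean in control sclera was 4.71 ± 4.96 and the difference -5.71 ± 1.96 (limma adjusted p = 0.030). It was the only 3p arm whose groups overlapped, since it was undetected in both tissues of pool 3, while 26.0% of all miRNAs were lower on every control retina array than on every control sclera array.

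The call of mmu-miR-141-3p was lost without control sclera 1 (difference -4.06, limma adjusted p = 0.10), without control sclera 2 (difference -4.50, limma adjusted p = 0.10) and without any 1 of the control retina pools (limma adjusted p = 0.062, 0.070 and 0.066). With the normexp background correction and an offset of 50, which compresses dim signals, mmu-miR-200b-3p (-1.15) was the only member still at least 2-fold different in the control eyes.

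Where a miRNA was undetected in a whole group, the fitted difference depends on the floor given to undetected values, so a lower bound was also computed. For it the dimmer group was placed, array by array, at the dimmest detected signal of the array or at the summed signal of the miRNA's own probes, whichever was higher. Group means on the log2 scale were then compared with scaling by the 75th percentile and without it, and the smaller ratio was taken. By this bound mmu-miR-200a-3p was at least 18.6-fold higher in control sclera than in control retina (38.2-fold after scaling) and mmu-miR-200c-3p at least 15.7-fold (32.3-fold after scaling). For mmu-miR-141-3p, with 1 undetected sclera pool, it was at least 4.91-fold. For mmu-miR-200b-3p, with 1 of 3 retina pools detected, it was at least 32.0-fold.

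In the myopic eyes these 4 arms were undetected in the retina and detected in all 3 sclera pools, so the groups did not overlap, as was so for 35.0% of all miRNAs in this direction. Mmu-miR-200b-3p differed by -9.06 ± 1.05 (limma adjusted p = 3.7e-05) and was at least 33.9-fold higher in sclera. Mmu-miR-200a-3p differed by -8.35 ± 0.61 (limma adjusted p = 1.4e-06), at least 17.0-fold. Mmu-miR-200c-3p differed by -7.61 ± 0.71 (limma adjusted p = 7.4e-06), at least 11.1-fold. Unlike in the control eyes, mmu-miR-141-3p was detected in every pool of the sclera group. Its difference was -7.92 ± 1.96 (limma adjusted p = 0.0051), at least 12.2-fold.

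The 3 members noticed in the retina behaved differently from each other between the tissues. The difference of mmu-miR-429-3p between retina and sclera was -7.27 ± 1.14 (log2, SE) in control eyes and -3.97 ± 1.14 in myopic eyes, and on every slide its normalized signal was lower in retina than in sclera in both kinds of eye. Before normalization the myopic eyes of pool 1 were an exception, with 38.8 in retina and 34.3 in sclera. Mmu-miR-200a-5p was higher in retina by 1.84 ± 1.23 in control eyes, where 1 pool detected it, and by 6.23 ± 1.23 in myopic eyes, where all 3 did. Mmu-miR-141-5p was higher in retina by 1.29 ± 0.91 and 5.17 ± 0.91 respectively. In the myopic eyes mmu-miR-200a-5p was at least 11.5-fold and mmu-miR-141-5p at least 5.93-fold higher in retina than in sclera. In the control eyes the same bounds were 0.44-fold and 0.31-fold, so they did not place either arm higher in retina. With scaling by the 75th percentile the difference of mmu-miR-429-3p in the myopic eyes was -2.84 and without normalization between arrays -1.65.

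**Figure D2:**
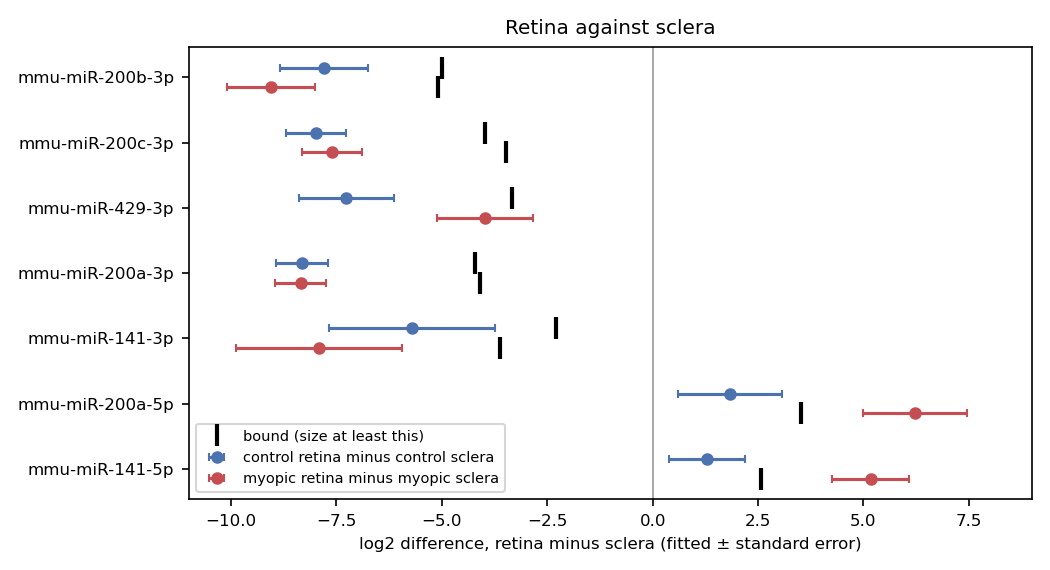
Fitted difference between retina and sclera (log2, horizontal axis, negative where retina was lower) of the 7 tested members, with bars for the standard error, in control eyes (blue) and myopic eyes (red). Black ticks mark the lower bound of the size where a member was undetected on all or some arrays of the dimmer group and the log2 bound was above 0. Both 5p arms in control eyes have no tick because their log2 bounds were below 0. All 5 3p arms lie left of 0 and both 5p arms right of 0.

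In the sclera, limma called 0 of the 7 members after form deprivation, as it called 0.0% of the 443 miRNAs in either direction. At an unadjusted p under 0.05 there were 13 miRNAs and 0 members, and the linear model without moderation of the spread, the test of the methods, also gave 0 calls. The differences between myopic and control sclera were -0.13 ± 1.05 (log2, SE) for mmu-miR-200b-3p, -0.39 ± 0.71 for mmu-miR-200c-3p and -0.07 ± 1.14 for mmu-miR-429-3p. They were 0.03 ± 0.61 for mmu-miR-200a-3p and 2.21 ± 1.96 for mmu-miR-141-3p (limma adjusted p = 1.0 for all 5). The spread is shared with the retina arrays. Their floor values lower the SEs of mmu-miR-200a-3p, mmu-miR-200c-3p and mmu-miR-141-3p, which therefore understate the spread in the sclera. After normalization the myopic pool was lower on slide 1 and higher on slides 2 and 3 for every 3p arm. Before normalization, as the signals above show, it was also lower on slide 2 for all but mmu-miR-141-3p. In mmu-miR-200b-3p the normalized differences were -2.12, 0.38 and 1.35.

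The pools of the sclera thus differed more within a group than the group means did. Of 266 miRNAs detected on all 6 sclera arrays, the median ratio of the brightest to the dimmest array was 2.71. It was 16.5 for mmu-miR-200a-3p, the third most variable of them, 13.7 for mmu-miR-200c-3p, 10.5 for mmu-miR-429-3p and 9.15 for mmu-miR-200b-3p, which was in place 12. After normalization mmu-miR-200c-3p had the widest range of all 266, at 3.13 on the log2 scale, against a median of 0.66.

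Control sclera 3 and myopic sclera 1 were the dimmest 2 arrays for these 4 members and for 11 of the 266 miRNAs (4.14%), or 21 (7.89%) after normalization. Among the 11 were also mmu-miR-184-3p, mmu-miR-203-3p and mmu-miR-205-5p, miRNAs known from the corneal, skin and lens epithelium that had been listed as markers of surface epithelium. The rest of the 11 were mmu-miR-10b-5p, mmu-miR-222-3p, mmu-miR-20a-5p and mmu-miR-221-3p, which were on none of the marker lists. No tested name of the list of other epithelial miRNAs (miR-31, miR-192, miR-194 and miR-375) was among the 11. Mmu-miR-205-5p measured 971, 417 and 108 in control sclera and 86.0, 474 and 421 in myopic sclera. Mmu-miR-203-3p measured 118, 59.2 and 10.4 in control sclera and 14.0, 55.7 and 49.0 in myopic sclera. Mmu-miR-184-3p measured 5435, 1666 and 552 and then 614, 2494 and 2431, although after normalization its dimmest arrays were not the same pair. The summed signal of the 3 tested names of this list (of 4 on the array) ranged from 670 to 6525 in control sclera and from 714 to 3023 in myopic sclera, and the summed 3p signal of the family from 92.6 to 1159 and from 143 to 633.

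Of the 3 tested names of surface epithelium, 2 were called higher in sclera than in retina in the control and in the myopic eyes. The miRNAs of retinal neurons also varied between sclera pools (summed signal 843 to 13756 in control sclera and 3495 to 7350 in myopic sclera). Control sclera 3 was the dimmest pool for them as well, but myopic sclera 2 lay below myopic sclera 1. Whether surface epithelium in the sclera pools accounts for the levels of the 3p arms was not tested. Control sclera 3 was dim for miRNAs in general, as described above, whereas myopic sclera 1 was not, with a 75th percentile of 601.

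**Figure D3:**
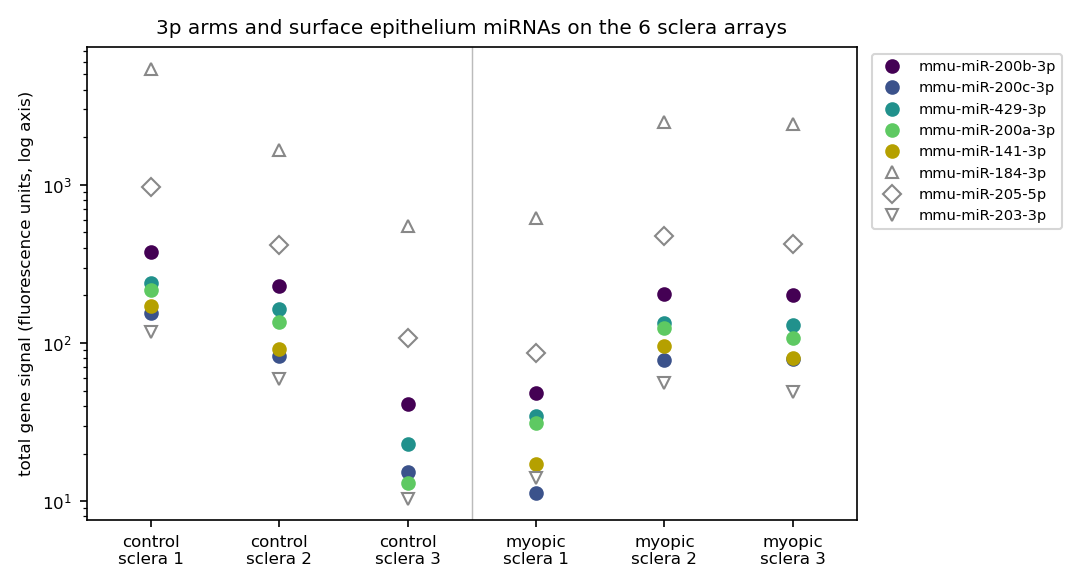
Total gene signal (fluorescence units, log axis) of the 5 3p arms (filled circles) and of 3 miRNAs of surface epithelium (open grey symbols) on the 6 sclera arrays. All are low in control sclera 3 and myopic sclera 1 and high in the other 4 pools, and mmu-miR-141-3p has no point in control sclera 3, where it was not detected.

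In the retina the 5p arms had the opposite distribution. Mmu-miR-200a-5p, the strand of the miR-200a hairpin that is usually lost, measured 41.4 in control retina 1, was undetected in control retina 2 and 3, and measured 84.5, 114 and 40.4 in myopic retina pools 1 to 3. Mmu-miR-141-5p measured 13.6 in control retina 1, was undetected in control retina 2 and 3, and measured 44.3, 75.5 and 16.2 in myopic retina. In both, myopic retina 2 was the highest pool, and control retina 1 was close to myopic retina 3.

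On the normalized log2 scale the myopic group was higher in all 3 pairs of eyes. Mmu-miR-200a-5p differed by 0.93, 6.53 and 5.69 in pools 1 to 3, and mmu-miR-141-5p by 1.63, 5.80 and 4.23, where the last pair of values of each set myopic pools against undetected controls. The fitted differences were 4.38 ± 1.23 and 3.89 ± 0.91 (SE), and neither pair of groups overlapped after normalization, which was so for 5.19% of all miRNAs in this direction. The sclera arrays, all at the floor for these arms, lowered these SEs. With only the retina groups fitted, the SEs were 1.74 for mmu-miR-200a-5p and 1.28 for mmu-miR-141-5p. On the total gene signal before normalization, control retina 1 (41.4) lay above myopic retina 3 (40.4) for mmu-miR-200a-5p. The size of these differences was set by the floor in the undetected pools.

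Mmu-miR-429-3p was the only 3p arm found in more than 1 retina pool. It measured 18.1 in control retina 1, was undetected in control retina 2 and 3, and measured 38.8, 57.1 and 8.71 in myopic retina. Its groups overlapped, with myopic retina 3 below control retina 1, although each myopic pool was above the control pool of the same mice (0.98, 5.34 and 3.35 on the normalized log2 scale, fitted difference 3.22 ± 1.14). Mmu-miR-200b-3p, which shares its seed and its locus, was detected in control retina 3 alone, at 7.78. That array was also the only retina array that detected mmu-miR-205-5p (12.2), and its mmu-miR-184-3p signal, at 5342, was the highest in the retina. Its signals of mmu-miR-199b-5p (169, connective tissue) and mmu-miR-1a-3p (181, skeletal muscle) were the highest in the retina too. On the same lists, its mmu-miR-206-3p (14.4) was the lowest in the retina and mmu-miR-214-5p was undetected on it.

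The processed signals of single spots, from which the background had been subtracted, also give values for undetected pools. For mmu-miR-200a-5p their mean over the spots not flagged as outliers was 31.0, 6.56 and -0.31 in control retina and 63.8, 86.6 and 30.7 in myopic retina. For mmu-miR-141-5p it was 14.3, 2.49 and -1.65 in control retina and 33.4, 57.2 and 13.8 in myopic retina. Thus control retina 1 slightly exceeded myopic retina 3 in both, and the other controls lay between -1.65 and 6.56.

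All 3 probes of mmu-miR-200a-5p, which differ only in how far they reach toward the 5′ end of the miRNA, gave the same picture. They are shown 5′ to 3′, with capitals for the bases added to the shortest probe, and match the chromosome 4 locus at chr4:155429026-155429041 (mm9):
mmu-miR-200a-5p, 14 bases: tccagcactgtccg
mmu-miR-200a-5p, 15 bases: tccagcactgtccgG
mmu-miR-200a-5p, 16 bases: tccagcactgtccgGT
In myopic retina 2, the brightest pool, they measured 88.0 ± 5.19 (SD over 7 spots), 79.5 ± 4.60 (6 spots) and 91.2 ± 4.31 (7 spots). In control retina 3 they measured -0.54 ± 1.70, -1.74 ± 1.27 and 1.11 ± 2.43. The differences between these pools were far larger than the spread between spots, which measures the array and not the animals. The 4 probes of mmu-miR-141-5p, of 14 to 17 bases, rose with length, from 35.1 ± 4.50 to 80.5 ± 10.7 in myopic retina 2 (5 spots each). In control retina 3 they lay between -4.76 and 0.25.

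For mmu-miR-429-3p the means of the spot signals were 13.6, 4.67 and 6.13 in control retina against 29.3, 43.2 and 11.4 in myopic retina. With these signals in place of the total gene signal, the normalized difference between myopic and control retina was 1.08 ± 0.62 (log2, SE).

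**Figure D4:**
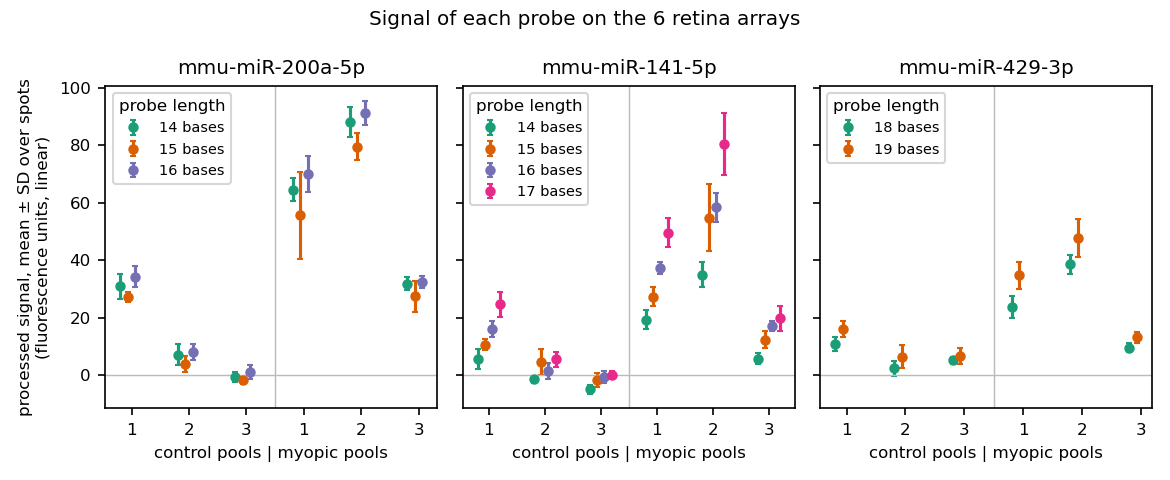
Processed signal (fluorescence units, linear axis) of each probe of mmu-miR-200a-5p, mmu-miR-141-5p and mmu-miR-429-3p on the 6 retina arrays, coloured by probe length. Points are the mean and SD over the spots of a probe not flagged as outliers. Every probe is highest in myopic retina 2, and control retina 1 and myopic retina 3 lie close together, as for the 16-base probe of mmu-miR-200a-5p (34.3 and 32.5).

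The detection pattern of the 5p arms, control retina 1 and all myopic retina pools but no sclera, was shared by 16 of the 443 tested miRNAs, 14 of them outside the family. The longest probe of each of these 16 had a median length of 16 bases, against 18 bases over all 443. Its median share of G and C bases was 57.5%, above that of all 443, and ranged from 23.8% to 64.3%. Whether probe length or base content bears on this pattern was not tested. In the retina arrays alone the pattern was shared by 19 miRNAs, mmu-miR-429-3p included. Partial detection was common, since 89 miRNAs were found on 1 to 5 of the 6 retina arrays. Myopic arrays outnumbered control arrays among the detections of 72 of them, 9 had more control arrays and 8 had equal numbers. Between 376 and 401 miRNAs were detected per myopic retina array and between 353 and 372 per control retina array. The part of this general difference in the values of the 3 members was not tested.

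Without control retina 1, which resembled the myopic pools in these members, the fitted differences were 6.23 for mmu-miR-200a-5p, 5.17 for mmu-miR-141-5p and 4.61 for mmu-miR-429-3p. The fit of all miRNAs was sensitive to the same array, with 1 of 443 miRNAs called in the retina (0.226%) and 122 called without control retina 1. When the change in the sclera was subtracted from that in the retina, limma called 1 miRNA (0.226%) and 0 members, and at an unadjusted p under 0.05 there were 36 miRNAs. With the pool number as a block this count of calls was 0.

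Set side by side, the arms of the miR-200a and miR-141 hairpins were never detected on the same array. The array held both arms of 157 hairpins, and for 75 of them each arm was detected on at least 1 array. Of these 75, miR-200a and miR-141 were the only hairpins whose arms never occurred together, and also the only ones with 1 arm in the retina alone and the other in the sclera alone. For miR-200a the 5p arm was found on 4 retina arrays and the 3p arm on 6 sclera arrays. For miR-141 the numbers were 4 and 5. The difference between the arms (log2, 3p minus 5p, undetected values at the floor) was -6.23 ± 0.46 (SD, n = 3) in myopic retina and 8.35 ± 1.05 in myopic sclera for miR-200a. For miR-141 it was -5.17 ± 0.83 in myopic retina and 7.92 ± 1.38 in myopic sclera. In control retina 2 and 3 neither arm of either hairpin was detected.

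The spot signals, which do not depend on the detection threshold, bore the same separation on the arrays that detected an arm, but not on every array of a tissue. In the sclera, the mean spot signal of mmu-miR-200a-5p lay between -2.27 and 0.89, while that of mmu-miR-200a-3p lay between 12.4 and 162. In the retina, mmu-miR-200a-3p lay between -0.49 and 6.27, while mmu-miR-200a-5p lay between -0.31 and 86.6. Its lowest value, in control retina 3, was within its sclera range. For miR-141 the 5p arm lay between -2.66 and -1.22 in the sclera and between -1.65 and 57.2 in the retina. The 3p arm lay between 0.45 and 4.50 in the retina and between 4.05 and 140 in the sclera. Both arms thus overlapped between the tissues, through control retina 3 for the 5p arm and control sclera 3 for the 3p arm. The arms of the other hairpins gave no such contrast. Mmu-miR-200b-5p, with the same seed as mmu-miR-200a-5p, had spot signals between -4.95 and -1.20 on all 12 arrays, and mmu-miR-200c-5p between -2.98 and 1.84. The array has no 5p arm of miR-429.

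**Figure D5:**
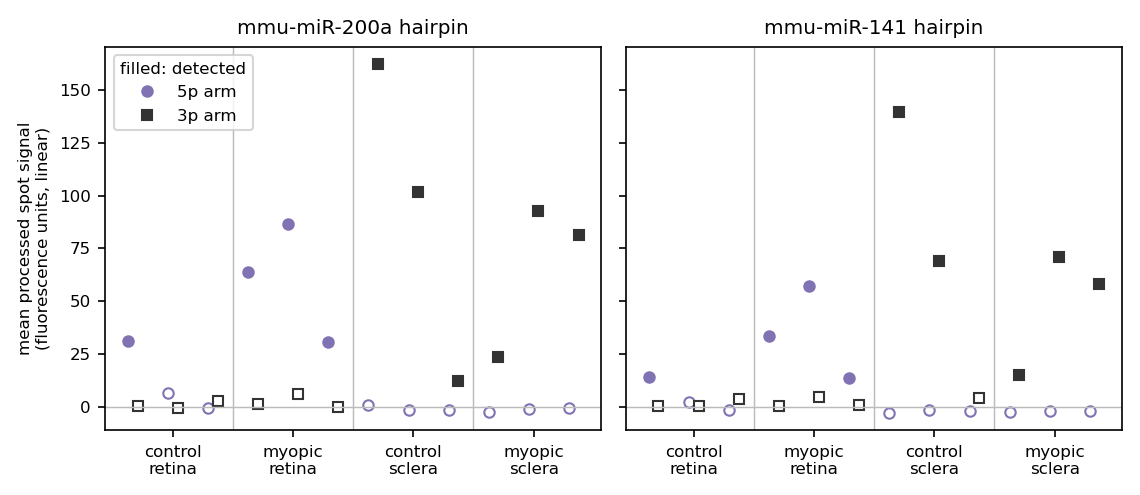
Mean processed spot signal (fluorescence units, linear axis) of the 5p arm (circles) and the 3p arm (squares) of the miR-200a hairpin (left) and the miR-141 hairpin (right), with the 3 pools of each group in order along the horizontal axis. Filled symbols mark arrays on which the arm was detected. The 5p arm is filled only in retina and the 3p arm only in sclera.

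The miRNAs outside the family most like mmu-miR-200b-3p over the 12 arrays (Pearson r of the normalized log2 signal, with undetected values at the floor, as a description) were mmu-miR-205-5p (r = 0.9996), mmu-miR-455-5p (0.9917), mmu-miR-199b-5p (0.9865), mmu-miR-199a-5p (0.9849) and mmu-miR-199a-3p (0.9846). The 12 points share 2 tissues, 3 slides and the pools of mice. Mmu-miR-205-5p and mmu-miR-455-5p were also the only miRNAs detected on exactly the same 7 arrays. Within the family, mmu-miR-200a-3p (0.97) and mmu-miR-200c-3p (0.97) ranked 22 and 26 among all miRNAs tested, mmu-miR-141-3p (0.85) ranked 106, and mmu-miR-429-3p (0.78), which was also present in myopic retina, ranked 126. The miRNAs most like mmu-miR-200a-5p were mmu-miR-1947-5p (0.9986), mmu-miR-704 (0.9985), mmu-miR-1306-3p (0.9958), mmu-miR-764-5p (0.9951) and mmu-miR-1894-5p (0.9947), all with the same detection on the 12 arrays. Mmu-miR-141-5p ranked 8 (0.99), and mmu-miR-200a-3p, from the opposite arm of the same hairpin, had r = -0.70.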

How the data were processed

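The authors deposited the scanner output of 12 single-colour Agilent mouse miRNA arrays, with background-subtracted fluorescence intensity per spot and a total gene signal per miRNA, not normalized between arrays. The file headers name Feature Extraction 11.0.1.1, whereas the methods name another version. Control spots were left out. For the means of spot signals, spots flagged as population or non-uniformity outliers were left out as well. Apart from these and the detection flag, no flag column was used to filter. The authors also deposited log2 values of 448 entries (Partek 6.6 per the submitters' processing notes), used as an alternative. They correlated with the values here at 0.999 over 437 shared names, with a median absolute difference of 0.12, and the methods name a removal of absent features and outliers, whose criteria are not given in the sources used here.

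Total gene signals were floored at 0.5, quantile normalized over 696 names and 12 arrays and log2 transformed. The 443 miRNAs detected on at least 1 array were tested with limma 3.58.1 (R 4.3.3) in 1 fit of 4 groups, and p-values were two-sided and adjusted over all 443. Groups and pool numbers follow the labels. The p-values rest on a spread per miRNA that is shared by the pools of all 4 groups, and the number of arrays (3 per group) limits the precision. In a group with no detection the floor sets the spread to 0. This lowers the SE and the p-value of members undetected in the retina, such as mmu-miR-200a-3p. Values at the floor have no order, so bounds replace fold changes there: in the brighter group an undetected array stood at 0.5. The bound was set at the lower of the scaled and unscaled ratios after the values were seen. Figures were drawn with Python 3.11.15 and matplotlib 3.10.9.

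All names matching the 5 prefixes are reported. For likeness, the 5 miRNAs outside the family with the highest r to mmu-miR-200b-3p and to mmu-miR-200a-5p were named. Members, marker lists and tests were chosen with earlier results of these data known. The miRNAs that share low sclera pools or a detection pattern with the family were looked up after the values were seen. The marker lists were surface and lens epithelium, other epithelial, pigment epithelium, retinal neurons, skeletal muscle, connective tissue of the sclera, and blood. Between control retina and control sclera, 1 of 5 tested other epithelial names and 1 of 2 of pigment epithelium were called higher in retina, and 1 of 2 of blood was called higher in sclera.

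The labels give arrays of the same number the same mouse identifier, so the numbers pair the eyes and tissues, and they also mark the slide. Over 246 miRNAs, deviations from the group means correlated within pairs at 0.38, -0.46 and 0.59 in the retina, and at -0.14, -0.16 and -0.00 in the sclera. Alternatives covered scaling, floor, filter, signal column, background correction, test, replicate block, array weights and leaving out each array.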

Additional observations from a re-analysis of the deposited data

How the results depend on the processing

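Over all 7 tested members, including the 3 whose retina signals chose the family and which therefore count only as a description, 5 passed the thresholds between the tissues in control eyes and 7 in myopic eyes. These numbered 4 to 5 and 7 to 7 when each array was left out in turn, and 1 and 1 with the normexp correction. All miRNAs called in control eyes numbered 224, and 192 to 224 with an array left out, 128 when only miRNAs detected on all 12 arrays were tested and 65 with normexp. In myopic eyes they numbered 261, with 243 to 270, 139 and 79 respectively. The calls split into 122 higher and 102 lower in control retina, 160 and 82 with 75th percentile scaling, and 224 and 44 without normalization (myopic: 144 and 117, 196 and 82, 266 and 42). The median difference over the 246 miRNAs that all arrays detected moved with scaling from -0.24 to 0.13 and 1.17 in control eyes and from -0.32 to 0.39 and 1.58 in myopic eyes. For the retina response it moved from -0.21 to -0.02 and 0.08. The 3p arms were lower in retina than in sclera under all of these scalings, which was fixed in advance for arms at the floor in retina. No family member could be tested among miRNAs detected on all 12 arrays.

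For the retina response to form deprivation, 1 miRNA and 0 members were called. The count of miRNAs was 0 when undetected values were raised to the dimmest detected signal, with miRNAs detected on all 12 arrays, with processed spot signals, with normexp and with only the 2 groups fitted, 2 with the authors' log2 values and 146 with array weights, whose estimation stopped before it converged. Of the 7 members, 3 passed the thresholds with array weights, against 146 of 443 miRNAs. Leaving out 1 array gave 1 to 122 of 443 miRNAs and 0 to 3 members, the highest without control retina 1. The 3 are the members whose retina signals chose the family, so their counts are a description and not a test. Without myopic retina 3 there were 14 miRNAs. In the sclera, where 0 were called, array weights gave 1 and leaving out 1 array gave 0 to 1, with 0 to 0 members. For the difference between the tissues in the response, 1 miRNA was called, and 0 with undetected values at the dimmest detected signal, miRNAs detected on all 12 arrays, processed spot signals, normexp and the authors' log2 values. As this difference holds the retina contrast, its counts of members are again a description. Array weights gave 156 miRNAs and 3 members, and leaving out 1 array gave 0 to 111 and 0 to 3, the highest again without control retina 1. The cause was not tested.

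When the pool number entered the fit as a replicate block, 0 miRNAs were called for the difference in response, 1 in retina, 0 in sclera, 224 in control eyes and 262 in myopic eyes, and the counts of members called (0, 0, 0, 5 and 7) did not change. The 4 3p arms that played no part in the selection stayed lower in retina under every alternative that could test them. On most or all retina arrays they stood at the floor, so scaling, floor and left-out arrays could hardly change this direction. Its constancy is therefore a description and not a test. The call of mmu-miR-141-3p in control eyes was lost under several alternatives, as given above.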
